A study of Homo sapiens with 9 samples.

Results

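The genes of the oxygen-sensing pathway itself were followed in AGS cells, a human gastric adenocarcinoma line, in which HIF1A had been silenced. The members were HIF1A, EPAS1, HIF3A, ARNT, ARNT2, VHL, EGLN1, EGLN2, EGLN3 and HIF1AN, chosen by gene name through the arrays' annotation, with no threshold on a measured value. They were 10 of the 20072 genes named on the arrays and were represented by 20 of the 47324 probes on both array versions together. Of these, 17 were on both versions and 3 on the HumanHT-12 chip alone.

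HIF- cells, which the labels call HIF-KD, were AGS cells stably transduced with an shRNA against HIF1A, and SCR cells, labelled Scrambled, were the same line stably transduced with a control shRNA that has no intended target. Both were kept in routine culture, and the labels name no reduction in oxygen. Each group had 3 replicates, hybridised as 9 Illumina arrays: replicates 1 and 2 on HumanRef-8 with 1 array per group, and replicate 3 on HumanHT-12 with 3 HIF- and 2 SCR technical arrays, which were averaged. The labels name 1 knock-down and no hairpin, and the shRNA against HIF1A is taken from the study's methods. Whether the transduced cells were a pool or a clone is not given in the sources used here. An effect of the hairpin on other transcripts and the loss of HIF1A therefore cannot be told apart. The study's methods call the replicates biological and the experiments independent, but nothing states that they were separate transductions. The p-values and SEs therefore rest on the spread of the HIF- minus SCR differences across these replicates. That spread was moderated by the spread over all probes tested.

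HIF is a transcription factor made of an oxygen-regulated alpha subunit (HIF1A, EPAS1 or HIF3A) and a constitutive beta subunit (ARNT or ARNT2). In the presence of oxygen the prolyl hydroxylases EGLN1, EGLN2 and EGLN3 modify the alpha subunit, VHL then binds it as the recognition subunit of a ubiquitin ligase and it is degraded, while the asparaginyl hydroxylase HIF1AN blocks its contact with the coactivators p300 and CBP. EGLN1 and EGLN3 are well known as HIF target genes, which closes a feedback loop, whereas control of the pathway acts largely on alpha subunit protein, which these arrays do not measure.

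HIF binds DNA at a short core that reads ACGTG or GCGTG. Because the hydroxylase genes include known HIF targets, the sequence around their annotated starts is shown for the 3 EGLN genes, from 250 bases before to 50 bases after the start (RefSeq, GRCh38.p14, written 5′ to 3′ on the strand of the gene). Capitals mark the motif, with its palindromic context in EGLN2, whose entry is the upstream one of 2.

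EGLN1 (chr1:231422238-231422537, minus strand): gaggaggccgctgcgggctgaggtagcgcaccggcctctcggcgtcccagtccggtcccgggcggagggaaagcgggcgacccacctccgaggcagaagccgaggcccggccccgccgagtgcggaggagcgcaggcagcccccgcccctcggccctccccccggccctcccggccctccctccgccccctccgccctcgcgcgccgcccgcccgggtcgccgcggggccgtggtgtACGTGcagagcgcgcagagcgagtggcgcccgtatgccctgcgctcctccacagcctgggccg
EGLN2 (chr19:40798941-40799240, plus strand): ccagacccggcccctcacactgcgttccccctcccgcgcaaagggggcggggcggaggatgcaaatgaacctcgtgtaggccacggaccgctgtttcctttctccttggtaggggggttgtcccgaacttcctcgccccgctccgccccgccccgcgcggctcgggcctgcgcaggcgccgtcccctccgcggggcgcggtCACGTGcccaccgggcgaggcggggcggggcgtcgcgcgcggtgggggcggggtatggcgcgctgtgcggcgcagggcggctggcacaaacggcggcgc
EGLN3 (chr14:33951025-33951324, minus strand): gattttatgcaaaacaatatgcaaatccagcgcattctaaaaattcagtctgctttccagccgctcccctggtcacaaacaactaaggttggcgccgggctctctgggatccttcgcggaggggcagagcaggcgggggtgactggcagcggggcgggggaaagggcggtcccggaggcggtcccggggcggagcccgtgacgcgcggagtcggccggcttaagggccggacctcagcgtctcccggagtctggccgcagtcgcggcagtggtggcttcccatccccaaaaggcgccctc

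EGLN1 had 1 ACGTG, at position -13 from the start. The upstream EGLN2 entry held CACGTG, which reads the same on both strands and so counts as 2 overlapping ACGTG matches, at positions -49 and -48. EGLN3 had neither ACGTG nor GCGTG in this window. Of the other members, the upstream HIF1A entry and the EPAS1 entry had 1 GCGTG each, and the most upstream HIF3A entry had 3. The remaining HIF1A, HIF3A and EGLN2 entries had no match to either motif, nor did ARNT and HIF1AN. The promoter table held 12 entries for 8 member genes, and VHL and ARNT2 were not among them. Searched on both strands, ACGTG was found in 21.4% and GCGTG in 36.5% of all 35116 promoter windows of the same length, and at least 1 of them in 48.4%, so that a match is a frequent feature of such windows.

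Signals are normalized log2 values, and a difference of 1 on that scale is a doubling. They were background-corrected from the detection p-values with an offset of 16 and quantile-normalized within each array version. A probe was called detected on an array at a detection p under 0.01, where this p compares its signal with the negative control beads of that array. Undetected probes had a median signal of 4.18 to 4.29 per array. Of all probes of their version, the HumanRef-8 arrays detected 54.9 and 46.1% in HIF- cells and 55.6 and 46.7% in SCR cells. The HumanHT-12 arrays, which carry more probes, detected 34.1 to 34.7% in HIF- cells and 33.6 to 36.1% in SCR cells. The test was limma with the replicate as a block, on the 14686 of 24525 common probes that passed the filter on dim probes, with Benjamini-Hochberg adjustment over all of them. Of the defining markers, 5 of 6 epithelial and 3 of 5 gastric genes were detected on all 9 arrays, against 0 of 2 leukocyte, 0 of 4 fibroblast and 0 of 3 endothelial genes. Among those, the fibroblast gene COL1A1 was detected on 8 arrays and the endothelial gene PECAM1 on 3, and the other 7 on none.

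HIF1A was the only member called. It encodes the alpha subunit of HIF-1 and is the gene the hairpin targets, so its level checks the labels. It fell to 20.2 and 23.4% of the SCR level by the common probes, in all 3 replicates, and it remained detected on all 9 arrays. Probe ILMN_1763260 read 6.35, 5.33 and 5.95 in HIF- replicates 1, 2 and 3, against 9.02, 7.57 and 7.97 in SCR replicates 1, 2 and 3. Probe ILMN_2379788 read 5.41, 5.03 and 5.53 in HIF- replicates and 7.82, 7.06 and 7.37 in SCR replicates. The groups did not overlap by either probe, since the highest HIF- value lay below the lowest SCR value. The share of all probes tested whose averaged samples did not overlap was not counted. The log2 fold change was -2.31 ± 0.16 (SE, n = 3 per group) for ILMN_1763260, a level of 20.2% of SCR with a 95% confidence interval of 15.6 to 26.0%. It was -2.10 ± 0.15 (SE, n = 3 per group) for ILMN_2379788, 23.4% of SCR with an interval of 18.4 to 29.8%. Both had an adjusted p of 0.00536 in the limma fit. These were 2 of the 12 member probes tested, where 0.0409% of all probes tested were called lower and 0.109% were called in either direction. Without replicate 1 the adjusted p was 0.117 for ILMN_1763260 and 0.121 for ILMN_2379788, and the log2 fold changes were -2.13 and -1.94. With all common probes kept, dim ones included, both had an adjusted p of 0.506, and without the replicate block (array version as covariate) it was 1.0 for ILMN_1763260 and 0.334 for ILMN_2379788, with the fold changes as before.

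**Figure D1:**
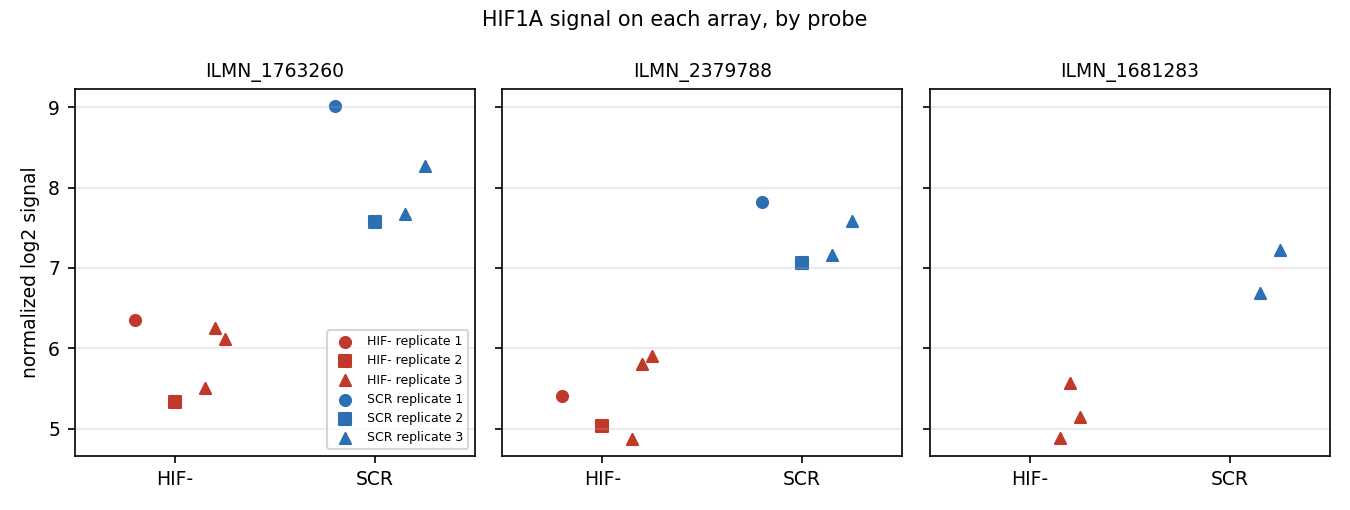
HIF1A signal (normalized log2, vertical axis) on each array for the 3 HIF1A probes, with HIF- arrays in red on the left and SCR arrays in blue on the right of each panel. Circles, squares and triangles are replicates 1, 2 and 3, the triangles are single technical arrays, ILMN_1681283 is on the replicate 3 chip alone, and in each panel every HIF- array lies below every SCR array.

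The residual HIF1A level is given for each replicate. By ILMN_1763260 the residual level was 15.7% of SCR in replicate 1, 21.1% in replicate 2 and 24.8% in replicate 3. By ILMN_2379788 it was 18.8%, 24.5% and 27.9% in replicates 1, 2 and 3. These levels depend on the processing. In the deposited values ILMN_1763260 read 6.88 in HIF- and 9.89 in SCR cells of replicate 1. In replicate 2 it read 4.75 in HIF- and 6.28 in SCR cells. By both probes the deposited difference was larger than the processed one in replicate 1 and smaller in replicates 2 and 3. Replicate 3 was alone on its array version, so that replicate and version cannot be told apart. With 1 array per group in replicates 1 and 2, both probes reading the same RNA, and technical SDs of 0.408 and 0.497 between arrays of replicate 3, no order of the replicates can be read from these values. The first probe gave the larger fall each time, by 0.26, 0.21 and 0.17 log2 units. Replicate 1 also had the highest SCR signal by both probes. The remaining probe, ILMN_1681283, on the HumanHT-12 chip alone, read 4.89, 5.57 and 5.15 on the HIF- arrays and 6.68 and 7.22 on the SCR arrays of replicate 3. Its difference was -1.75, or 29.7% of SCR, with no overlap between the arrays, and as technical arrays of 1 replicate these give no test. Among the 22798 probes on that chip alone, 20.4% had arrays of the groups that did not overlap. Antisense transcripts named HIF1A-AS1, HIF1A-AS2 and HIF1A-AS3 are annotated over HIF1A, and whether they contribute to any probe was not tested.

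The HIF1A probes also varied more than most between technical arrays of replicate 3. ILMN_1763260 read 5.50, 6.25 and 6.11 on the HIF- arrays, against 7.67 and 8.27 on the SCR arrays. ILMN_2379788 read 4.87, 5.81 and 5.91 on the HIF- arrays, against 7.16 and 7.58 on the SCR arrays. By all 3 probes the lowest HIF- value was on the first HIF- array and the lower SCR value on the first SCR array. The pooled technical SD was 0.408 for ILMN_1763260 and 0.497 for ILMN_2379788, at the 98.0th and 99.0th percentiles of the probes tested, whose median was 0.146. It was 0.356 for ILMN_1681283, at the 99.0th percentile of probes on the HumanHT-12 chip alone, whose median was 0.0941. The fall in HIF1A was several times this spread by each probe.

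None of the 10 tested probes for 8 other members passed the test. Their adjusted p lay between 0.714 and 0.998, and 0 of them had an unadjusted p under 0.05 in limma, against 1075 of all 14686 probes (7.32%). The median of their log2 fold changes was 0.04, from -0.25 to 0.25, beside a median of -0.01 over all probes tested. Both ends were dim probes, ARNT at the lower end, detected on 4 of 9 arrays, and HIF3A ILMN_1808409 at the upper. The latter was detected on 0 of 9 arrays and passed the filter through HIF- replicate 2 alone. In 3 of the 10 the difference had the same sign in all 3 replicates, and 31.5% of all probes tested did so. In replicate 3 the arrays of the groups did not overlap for 2 of the 10, against 26.1% of all common probes tested. By a rank rule rebuilt from the study's methods, which asks for a standardized difference in the top 10% of each replicate with a shared sign, both HIF1A probes and no other member were among the 0.681% of probes tested that were called.

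**Figure D2:**
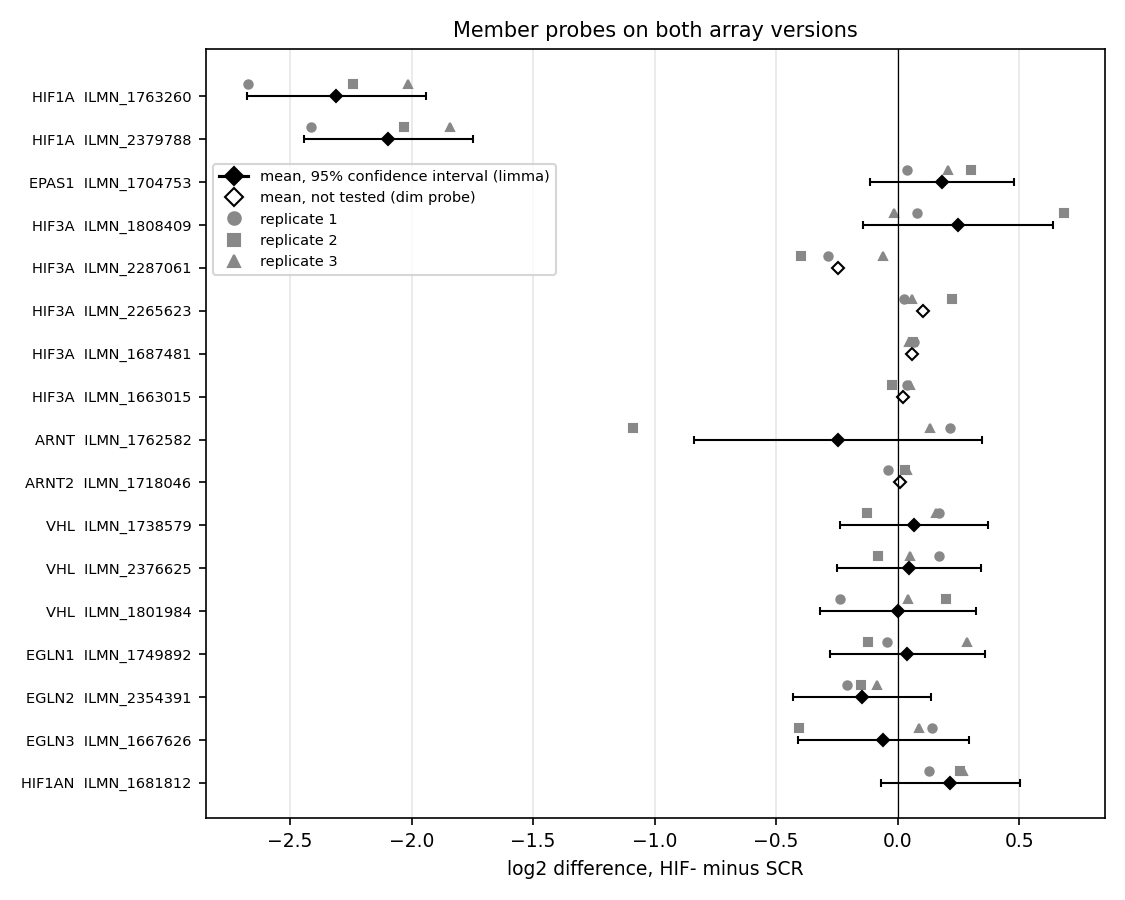
Log2 difference, HIF- minus SCR (horizontal axis), for the 17 member probes on both array versions (rows). Filled diamonds are means with 95% confidence intervals from limma, open diamonds are means of probes too dim to be tested, and grey symbols are the 3 replicates, with both HIF1A probes near -2 and the intervals of the other tested probes all spanning 0.

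EPAS1 encodes HIF-2alpha, the alpha subunit that can pair with ARNT in place of HIF-1alpha. It was detected on all 9 arrays, and it read 8.72, 8.78 and 8.08 in HIF- replicates 1, 2 and 3, against 8.68, 8.47 and 7.87 in SCR replicates. HIF- was the higher within each replicate, by 0.04, 0.30 and 0.21, but the groups overlapped. The log2 fold change was 0.18 ± 0.13 (SE, n = 3 per group; 95% confidence interval -0.11 to 0.48; adjusted p = 0.721, limma), so that the level in HIF- cells was 113% of SCR, with an interval of 92.4 to 139%. In replicate 3 the HIF- arrays lay at 8.06 to 8.11 and the SCR arrays at 7.80 to 7.94, without overlap. Under 19 other settings the fold change stayed between 0.12 and 0.26 and was called under none of them. Settings that changed only the filter, the test or the threshold could not move it.

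HIF3A encodes another alpha subunit, some of whose isoforms oppose HIF-1 and HIF-2. None of its 5 common probes was detected on any of the 9 arrays. Only ILMN_1808409 passed the filter, through HIF- replicate 2 alone. It read 4.33, 4.92 and 4.21 in HIF- replicates and 4.25, 4.24 and 4.23 in SCR replicates, and the single high value had no counterpart in replicates 1 and 3. Its log2 fold change of 0.25 had a 95% confidence interval of -0.14 to 0.64 (adjusted p = 0.714, limma). The 4 HIF3A probes left out had mean differences of -0.25 (ILMN_2287061), 0.10 (ILMN_2265623), 0.06 (ILMN_1687481) and 0.02 (ILMN_1663015), all near the signal of undetected probes. The largest of these, for ILMN_2287061, was 4.18, 4.11 and 4.26 in HIF- replicates and 4.47, 4.51 and 4.31 in SCR replicates. On the HumanHT-12 chip alone, ILMN_1792799 lay at 4.35 to 4.49 on HIF- arrays, detected on 0 of 3, and at 4.38 to 4.83 on SCR arrays, detected on 1 of 2. A HIF3A transcript was thus not detectable above background by the common probes in either group.

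ARNT encodes HIF-1beta, the shared partner of the alpha subunits. Its probe ILMN_1762582 was dim, detected on 2 of 5 HIF- arrays and 2 of 4 SCR arrays. It read 4.72, 4.21 and 4.70 in HIF- replicates 1, 2 and 3, against 4.50, 5.30 and 4.57 in SCR replicates. Replicate 2 stood apart, with a difference of -1.09, while replicates 1 and 3 differed by 0.22 and 0.13. In the deposited values of replicate 2 the probe read 4.34 in HIF- cells and 4.73 in SCR cells. That difference was smaller than after background correction and quantile normalization together. The log2 fold change was -0.25 ± 0.25 (SE, n = 3 per group; 95% confidence interval -0.84 to 0.35; adjusted p = 0.788, limma), the widest interval among the members, and without replicate 2 it was 0.18. ARNT2 encodes a second beta subunit best known from the nervous system. Its probe ILMN_1718046 was detected on 0 of 9 arrays and was left out of the test. It read 4.14, 4.15 and 4.37 in HIF- replicates and 4.18, 4.11 and 4.33 in SCR replicates, a mean difference of 0.01.

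**Figure D3:**
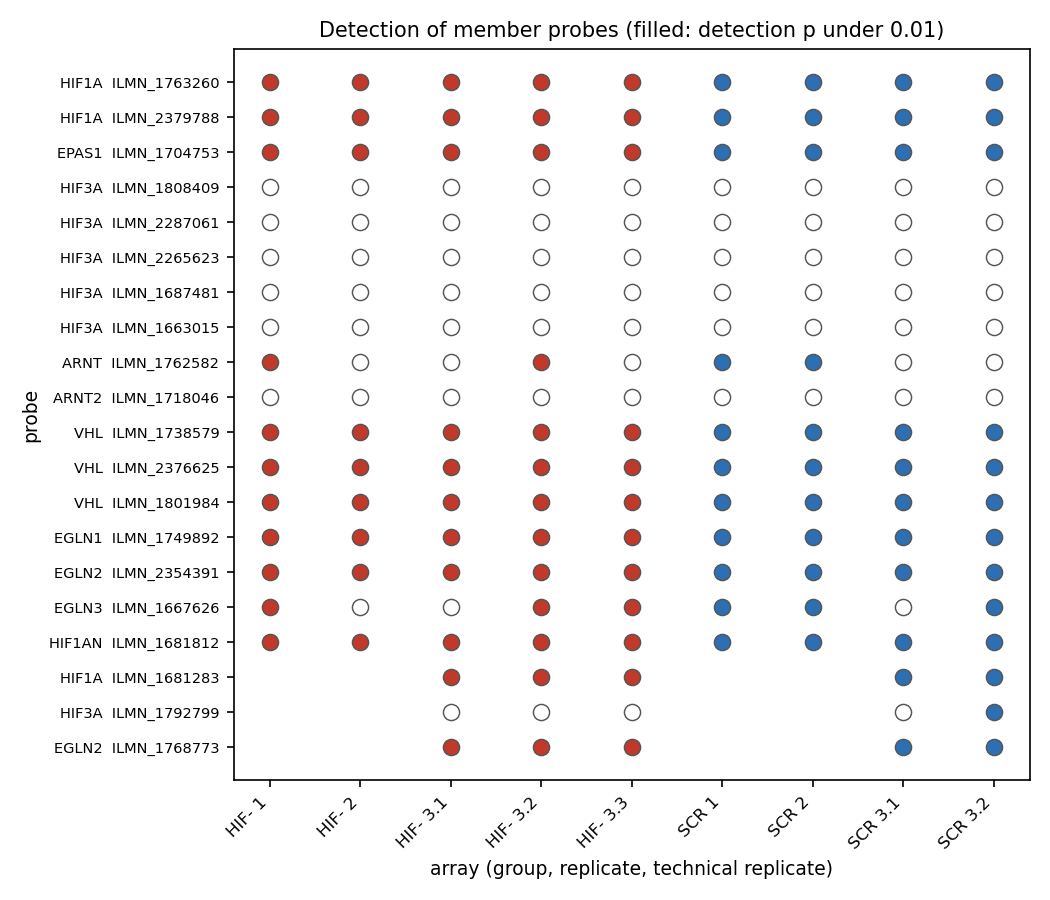
Detection of each member probe (rows) on each array (columns), HIF- arrays in red on the left and SCR arrays in blue on the right, filled where the detection p was under 0.01. HIF1A, EPAS1, VHL, EGLN1, EGLN2 and HIF1AN were detected on all arrays that carry their probes, EGLN3 and ARNT on some, ARNT2 on none, and HIF3A on none but 1 SCR array by ILMN_1792799; the lowest 3 rows are on the replicate 3 chip alone.

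VHL, the substrate receptor that marks hydroxylated alpha subunits for degradation, had 3 probes, all detected on all 9 arrays. ILMN_1738579 read 9.70, 9.38 and 9.57 in HIF- replicates and 9.53, 9.50 and 9.41 in SCR replicates. ILMN_2376625 read 8.03, 7.74 and 7.97 in HIF- replicates and 7.86, 7.82 and 7.92 in SCR replicates. ILMN_1801984 read 7.56, 7.64 and 7.07 in HIF- replicates and 7.79, 7.44 and 7.03 in SCR replicates. The groups overlapped by every probe, and the differences within replicates took both signs. The log2 fold changes were 0.07 (95% confidence interval -0.24 to 0.37), 0.05 (-0.25 to 0.34) and 0.00 (-0.32 to 0.32), with adjusted p of 0.886, 0.923 and 0.998 in limma for ILMN_1738579, ILMN_2376625 and ILMN_1801984. In HIF- cells VHL thus lay between 80.2 and 129% of its SCR level over the 3 intervals. Replicate 3 arrays did not overlap by ILMN_1738579, at 9.51 to 9.66 in HIF- cells and 9.35 to 9.46 in SCR cells, but did by the other 2 probes.

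EGLN1 (PHD2), the main prolyl hydroxylase acting on HIF1A in normal oxygen, was detected on all 9 arrays. It read 8.07, 7.39 and 7.43 in HIF- replicates 1, 2 and 3, against 8.11, 7.51 and 7.15 in SCR replicates. The differences of -0.04, -0.12 and 0.28 took both signs. Its log2 fold change of 0.04 had a 95% confidence interval of -0.28 to 0.36 (adjusted p = 0.940, limma), 82.4 to 128% of SCR. The EGLN1 window is the one with an ACGTG at position -13, and no change in its transcript passed the test.

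EGLN2 (PHD1), a prolyl hydroxylase found mainly in the nucleus, was lower in HIF- cells within each replicate, by less than the fit could call. ILMN_2354391 read 11.46, 11.80 and 10.91 in HIF- replicates, against 11.66, 11.95 and 10.99 in SCR replicates. The differences of -0.21, -0.15 and -0.09 gave a log2 fold change of -0.15 ± 0.12 (SE, n = 3 per group; 95% confidence interval -0.43 to 0.14; adjusted p = 0.743, limma), or 90.2% of SCR. On the HumanHT-12 chip alone, ILMN_1768773 read 7.43, 7.33 and 7.22 on HIF- arrays and 7.56 and 7.46 on SCR arrays. Its difference was -0.18, or 88.3% of SCR, without overlap, but the gap between the groups was narrower than the technical SD of 0.0960, and replicate 3 arrays overlapped by ILMN_2354391. A readthrough transcript, RAB4B-EGLN2, is annotated over EGLN2, and its share of either signal was not tested.

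EGLN3 (PHD3), the prolyl hydroxylase best known for its induction by hypoxia, was dim, detected on 3 of 5 HIF- arrays and 3 of 4 SCR arrays. ILMN_1667626 read 5.86, 4.93 and 4.87 in HIF- replicates and 5.72, 5.34 and 4.78 in SCR replicates. It was lower in HIF- cells in replicate 2 by 0.41 and higher in replicates 1 and 3, by 0.14 and 0.09. The log2 fold change was -0.06 (95% confidence interval -0.41 to 0.30; adjusted p = 0.920, limma), 75.2 to 123% of SCR, and it was 0.12 without replicate 2.

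HIF1AN, the asparaginyl hydroxylase also called FIH, was detected on all 9 arrays. It read 7.38, 7.56 and 6.36 in HIF- replicates 1, 2 and 3, against 7.26, 7.30 and 6.10 in SCR replicates. HIF- was the higher in each replicate, by 0.13, 0.26 and 0.27, though the groups overlapped because the signal of both differed more between replicates than between groups. The log2 fold change of 0.22 ± 0.12 (SE, n = 3 per group; 95% confidence interval -0.07 to 0.50; adjusted p = 0.714, limma) corresponds to 116% of SCR, with an interval of 95.3 to 142%. It had the lowest unadjusted p of the members other than HIF1A, 0.116 in limma. Over 19 other settings, some of which could not move the fold change, it stayed between 0.15 and 0.26 and was never called.

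The rest of the pathway was read from lists of HIF partners and regulators and of HIF target genes. Of 45 partners and regulators, 39 had a common probe and 32 were tested with 47 probes. By adjusted p in limma 0 of these probes rose and 0 fell, with 1 higher (AHR) and 1 lower (VBP1) at an unadjusted p under 0.05, which 3.43% of all probes tested passed as higher and 3.89% as lower. Their median log2 fold change was -0.04. AHR, the dioxin receptor, which also pairs with ARNT, had the largest difference among them, 0.00, 0.78 and 0.77 in replicates 1, 2 and 3, which gave a fitted log2 change of 0.52 ± 0.18 (SE, n = 3 per group; adjusted p = 0.590, limma). EP300, the coactivator whose contact HIF1AN blocks, averaged 6.05 in HIF- cells and 6.17 in SCR cells, a log2 fold change of -0.12 that limma did not call (adjusted p = 0.831).

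Of 34 HIF target genes, 31 had a common probe and 28 were tested with 33 probes. By adjusted p in limma 0 of these probes rose and 0 fell, with 1 higher and 4 lower at an unadjusted p under 0.05, beside the same 3.43 and 3.89% of all probes tested. Their median log2 fold change was -0.05, against -0.01 over all probes. ALDOC, a glycolytic aldolase, averaged 7.39 in HIF- cells and 7.93 in SCR cells, with differences of -0.38, -0.40 and -0.83. Its fitted change was -0.54 ± 0.14 on the log2 scale (SE, n = 3 per group; adjusted p = 0.414, limma). HMOX1, which breaks down heme, went the other way, averaging 7.56 in HIF- cells and 7.05 in SCR cells, for a fitted log2 change of 0.51 ± 0.14 (SE, n = 3 per group; adjusted p = 0.454, limma). Both had 1 direction in all 3 replicates without passing the test. The other lower probes at an unadjusted p under 0.05, named after their values were seen, were those of BNIP3L, P4HA1 and KDM3A. BNIP3L, a mitophagy receptor, stood at -0.48 (adjusted p = 0.528, limma). Its probe was dim, averaging 4.48 in HIF- and 4.96 in SCR cells, and was detected on 6 of 9 arrays. P4HA1, a collagen prolyl hydroxylase, stood at -0.40 by its 1 tested probe (adjusted p = 0.641, limma). Its differences were -0.63, -0.55 and -0.02 in replicates 1, 2 and 3. KDM3A, a histone demethylase, stood at -0.33 (adjusted p = 0.633, limma). VBP1, a prefoldin subunit that binds VHL, was also named after its values were seen and stood at -0.31 (adjusted p = 0.624, limma).

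**Figure D4:**
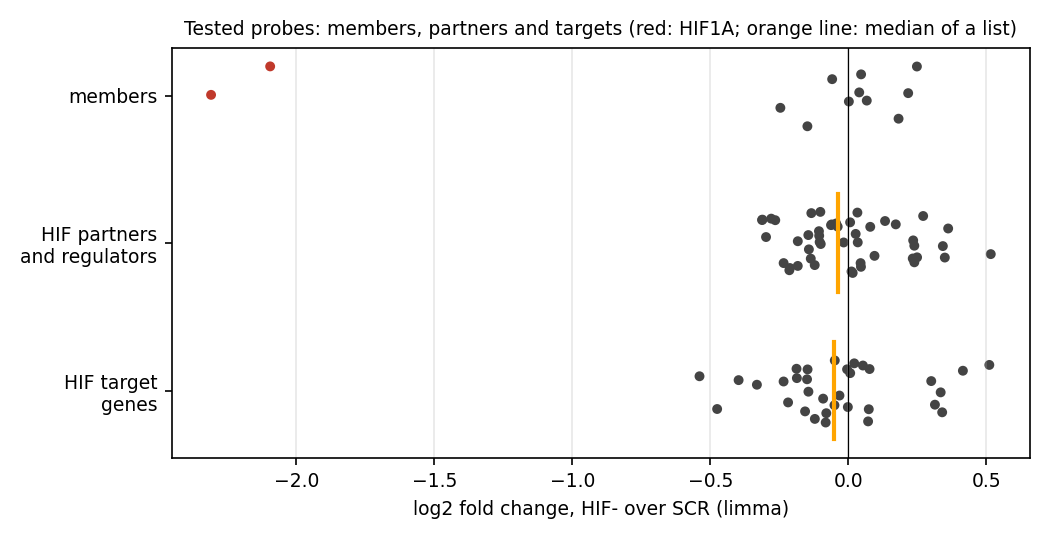
Log2 fold change, HIF- over SCR (horizontal axis, limma), of every tested probe of the members, of HIF partners and regulators, and of HIF target genes (rows). Points are probes, HIF1A is red, orange lines are list medians of -0.04 and -0.05, and every point but the HIF1A probes lies between -0.54 and 0.52.

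The 3 genes whose differences over the 3 replicates lay nearest to those of HIF1A (ILMN_1763260) were PUDP, SLCO2A1 and IGFBP2, by Euclidean distance over 3 values. PUDP, a pseudouridine phosphatase, lay at a distance of 0.70, with differences of -2.30, -1.77 and -2.36 in replicates 1, 2 and 3, and it was detected on 2 of 5 HIF- arrays. SLCO2A1, a prostaglandin transporter, lay at 0.78, with differences of -3.18, -2.73 and -2.35. IGFBP2, which binds insulin-like growth factors, lay at 1.67, with differences of -1.15, -1.57 and -1.86. The second HIF1A probe lay closer than any of them, at 0.38. These genes were chosen by these differences, which are therefore a description.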

How the data were processed

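RNA from AGS cells was hybridised to Illumina BeadChips of 2 versions. The deposited tables hold log2 bead signals, not normalized between arrays per the file headers, with a detection p-value for each probe and array; the background treatment before deposit is not given in the sources used here. The log2 values were taken back to the linear scale, background-corrected from the deposited detection p-values (limma nec, offset 16), quantile-normalized within each version and averaged over technical arrays. Probes below the median signal in every averaged sample were left out (9839 of 24525 common probes), which follows the study's filter at the 50% quantile. The authors' processed log2 values, made with RMA normalization and beadarray, were an alternative.

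limma 3.58.1 in R 4.3.3 fitted group and replicate block to 6 averaged samples, with 2 residual and 5.24 prior degrees of freedom and Benjamini-Hochberg adjustment. The replicate was a block because the study compared groups within each experiment. Same-numbered HIF- and SCR samples shared a BeadChip and deviated together: the correlation of their deviations from their group's mean was 0.623 for replicate 1, 0.798 for replicate 2 and 0.846 for replicate 3. The array version, shared by same-numbered samples, enters these deviations. They therefore cannot tell a pairing within replicates from a difference between versions. No arrays were identical (highest Spearman correlation 0.970). Replicates 1 and 2 on the one hand and 3 on the other differ in array version. All 9 signal columns were matched to samples. The number of arrays limits precision. The script was tested on simulated data.

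Gene symbols came from the platform annotation: 22317 common probes had 1 symbol and 2208 had none. Levels were not compared between probes. All member probes were described, together with list probes that passed the test or had up to 5 genes per list at an absolute log2 fold change of at least 0.5 with 1 sign, EP300, and the 3 genes nearest to HIF1A. The members and lists were chosen with earlier results of these data known.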

Additional observations from a re-analysis of the deposited data

How the results depend on the processing

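Of the members, HIF1A kept its direction under every one of the 19 alternatives tried for ILMN_1763260 and the 18 for ILMN_2379788. Alternatives that changed only the filter, the test or the threshold left every fold change as it was. The HIF1A level in HIF- cells ranged from 18.2 to 30.1% of SCR by ILMN_1763260 and from 21.1 to 38.4% by ILMN_2379788, highest with normexp at an offset of 50. In replicate 3, ILMN_1681283 ranged from 28.7 to 48.4% of SCR over 6 alternatives, also highest with that normexp setting. The call of HIF1A was lost in 5 alternatives. For ILMN_1763260 these were no filter on dim probes (-2.31, adjusted p = 0.506, limma), no replicate block with array version as covariate (-2.31, adjusted p = 1.0), no replicate block and no covariate with all arrays normalized together (-2.28, adjusted p = 1.0), leaving out replicate 1 (adjusted p = 0.117), and the methods' t-test after adjustment (-2.31, adjusted p = 1.0), whose unadjusted p was 0.0115. Leaving out each replicate gave fold changes of -2.46 to -2.13. The cause of these losses was not tested. Leaving out any replicate leaves 1 residual degree of freedom. The call of ILMN_1763260 was kept without replicate 2 (adjusted p = 0.0179, limma) and without replicate 3 (adjusted p = 0.00856, limma).

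Without the block that pairs HIF- and SCR samples, 0 member probes were called in either form, and the counts over all probes were 1 higher and 1 lower with array version as covariate, in place of 10 and 6. With no covariate and all arrays normalized together they were 0 higher and 1 lower, where the same normalization with the block gave 17 and 11. Member probes called were also 0 without the filter and by the adjusted methods' t-test, 1 with the brightest probe of each gene, where HIF1A has 1 probe, and 0 to 2 with a replicate left out. The probes called higher and lower were 29 and 25 with scaling to a common median, 0 and 0 without the filter, 24 and 17 at an adjusted p under 0.1, 59 and 80 by the unadjusted methods' t-test, 0 and 0 after its adjustment, and 53 and 47 by the rank rule. With normexp at an offset of 50, or the first technical array alone, 5 were called higher. With a replicate left out, 0 to 6 were called higher and 0 to 5 lower.

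Some members changed sign without being called. ARNT, at -0.25 in the limma fit above, was among them, and the others lay near 0. With scaling to a common median, EGLN1 was -0.013, ARNT 0.039, VHL ILMN_1801984 -0.065 and VHL ILMN_2376625 -0.020. With the authors' processed values, EGLN3 was 0.023 and VHL ILMN_1801984 was -0.0020. The same VHL probe was -0.00031 with normexp at an offset of 50 and -0.0017 with all arrays normalized together, with or without the block. With a replicate left out, EGLN3 ranged from -0.16 to 0.12, EGLN1 from -0.082 to 0.12, ARNT from -0.48 to 0.18, VHL ILMN_1801984 from -0.096 to 0.12 and VHL ILMN_2376625 from -0.015 to 0.11. EPAS1, HIF1AN, EGLN2 and VHL ILMN_1738579 kept their signs under all 19 alternatives, and the undetected HIF3A ILMN_1808409 under its 18. Alternatives that changed only the filter, the test or the threshold could not alter a sign. Signal over background limits HIF3A, ARNT2, ARNT and EGLN3, whose probes were undetected on some or all arrays.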
